A study of Rattus norvegicus with 46 samples.

Results

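Immediate early genes of the rat duodenal villus are described here: 10 genes chosen by symbol, namely Fos, Fosb, Fosl1, Jun, Junb, Egr1, Ier2, Atf3, Dusp1 and Klf6. They are measured by 16 of the 31042 probe sets of the array, 1 probe set for each of 6 genes and 2 or 3 for each of the 4 others (Fos, Jun, Dusp1 and Klf6). Every probe set carrying 1 of these symbols in the probe-set annotation was taken; the rule uses symbols only. All 16 passed the filter on low values, which left 26517 probe sets to be tested.

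RNA came from cryostat sections of a duodenal segment, cut across the crypt-villus axis, with the sections of the villus top and those of the villus bottom pooled separately for each rat, so every villus rat gave 1 top and 1 bottom array. Iron-deficient Wistar rats (+/+, n = 4) had a low-iron diet for 4 weeks, and 2 to 3 ml of blood was drawn every 3 days. Iron-repleted Wistar rats (+/+, n = 3) had the same diet and bleeding and then drank 50 µM ferric ammonium citrate for the last 3 days. The Belgrade rats (b/b, on a Wistar background) were on a normal diet (n = 4), or were fed iron for 3 days (n = 4) or for 6 days (n = 3) before death. Control Wistar rats (+/+, n = 4) had a normal diet. The Wistar rats of these groups were 1 month old when they were divided. The labels give no age for the Belgrade rats and no sex for any rat. All rats were fasted overnight and killed with pentobarbital, which the controls share. Belgrade rats carry a mutation of the divalent metal transporter gene Slc11a2 in every cell, so the defect is not limited to the intestine. The upper and lower crypt of 1 further +/+ rat came from a separate experiment.

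Immediate early genes are transcribed within minutes of a stimulus such as a growth factor, stress or injury, without new protein synthesis, and their transcripts are short-lived. Fos, Fosb and Fosl1 encode Fos proteins, which pair with the Jun proteins, Jun and Junb among them, to form the transcription factor AP-1. Egr1 and Klf6 are zinc-finger transcription factors, Atf3 is a stress-induced basic zipper factor, Ier2 is a small nuclear protein, and Dusp1 is a phosphatase that switches off the MAP kinases that induce these genes. In the duodenum, villus cells arise from the crypts and move towards the villus tip, where they are shed.

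Many of these genes respond through serum response elements, which hold a CArG box and bind SRF, or through cyclic AMP response elements, whose full palindrome is TGACGTCA and which bind CREB and ATF proteins. The 250 bases before the transcription start were searched on both strands in the RefSeq promoter table (rat assembly GRCr8), where 7 of the 10 genes are held: Fosb, Fosl1, Junb, Egr1, Ier2, Dusp1 and Klf6. The 4 promoters with a CArG box or a full palindrome are printed, with those motifs in capitals, because they differ between genes that behaved alike along the villus and because Ier2, whose villus difference was not called, holds 1 of them. Egr1 lies at chr18:26736828-26737077 (+), Klf6 at chr17:69458479-69458728 (-), Dusp1 at chr10:17184603-17184852 (+) and Ier2 at chr19:40399123-40399372 (+), each given for the 250 bases shown.
Egr1: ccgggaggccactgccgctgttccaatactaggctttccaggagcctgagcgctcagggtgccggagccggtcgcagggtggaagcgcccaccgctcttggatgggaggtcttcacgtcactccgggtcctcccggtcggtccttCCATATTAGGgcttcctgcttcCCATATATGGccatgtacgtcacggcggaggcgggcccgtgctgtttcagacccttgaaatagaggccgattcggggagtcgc
Klf6: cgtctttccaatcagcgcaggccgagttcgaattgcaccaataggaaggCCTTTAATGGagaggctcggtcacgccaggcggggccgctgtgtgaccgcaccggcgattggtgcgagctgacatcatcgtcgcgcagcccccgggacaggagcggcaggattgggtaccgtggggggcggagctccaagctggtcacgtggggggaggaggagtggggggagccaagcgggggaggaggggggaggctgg
Dusp1: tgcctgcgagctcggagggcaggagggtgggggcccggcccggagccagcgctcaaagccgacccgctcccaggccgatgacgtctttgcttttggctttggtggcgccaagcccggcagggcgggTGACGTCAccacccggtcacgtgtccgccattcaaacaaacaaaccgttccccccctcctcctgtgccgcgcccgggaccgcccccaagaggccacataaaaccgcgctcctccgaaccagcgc
Ier2: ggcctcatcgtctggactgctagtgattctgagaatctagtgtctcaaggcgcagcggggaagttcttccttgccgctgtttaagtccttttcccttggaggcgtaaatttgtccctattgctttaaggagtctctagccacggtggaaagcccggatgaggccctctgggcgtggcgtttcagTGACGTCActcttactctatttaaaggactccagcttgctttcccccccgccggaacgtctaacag

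The Egr1 promoter held 2 CArG boxes, starting 105 and 83 bases before the start site, and that of Klf6 held 1, starting 201 bases before it. The palindrome TGACGTCA stood in the promoters of Dusp1, 124 bases before the start, and of Ier2, 66 bases before it. Among all 33469 promoters of the same length, 1.5% held a CArG box and 1.59% held TGACGTCA. The shorter core TGACG, which every full palindrome also contains, was in 5 of the 7 member promoters and in 18.2% of all, and TATAAA was in 2 of the 7 (Fosb and Junb) and in 12.9% of all. A match is a run of letters only, and no binding was measured.

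Values are log2 normalised intensities, on which a difference of 1 is about a doubling for bright probe sets, and a probe set is called changed at a Benjamini-Hochberg adjusted p under 0.05 over all 26517 probe sets in limma. Levels of different probe sets are not comparable with each other, because probes differ in brightness. The deposited values show that every array had been scaled to a trimmed mean intensity, about 2501 on 42 arrays and 2876 on 4 arrays, the top and bottom of control rat 3 and of rat 3 of the Belgrade rats fed iron for 3 days. Rats 1 and 2 of the controls, and rats 1 and 2 of the Belgrade rats on a normal diet, were nearly identical in both segments: their difference had a robust SD of 0.147 to 0.179, while 28 further within-group comparisons of rats gave 0.231 to 0.729. Each near-identical pair entered as its mean, leaving 20 counted samples, with 4 iron-deficient, 3 iron-repleted, 3 Belgrade on a normal diet, 4 Belgrade fed iron for 3 days, 3 Belgrade fed iron for 6 days and 3 control. Nothing in the labels says more of how the rats were housed or the arrays run, so p-values measure the spread between these samples.

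The segments matched their labels. A mean of 8 enterocyte markers (Alpi, Apoa4, Fabp2 and others) was 16.14 to 17.09 in the top samples and 12.34 to 15.66 in the bottom samples, and a mean of 9 crypt and proliferation markers was 9.58 to 11.49 at the top and 11.98 to 13.29 at the bottom. Smooth muscle and stromal markers ranged from 12.25 to 13.17 at the top and from 12.59 to 15.75 at the bottom, with control rat 3 (15.75) and iron-repleted rat 3 (15.51) highest. Pancreatic enzyme markers, near the dim end of the scale in most samples, reached 12.28 to 15.98 at the bottom in 1 sample of each group except the iron-repleted one. The sections hold epithelium with the tissue beneath it, and here fewer cells of a type and less RNA per cell cannot be told apart.

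The villus top carried far more of these transcripts than the villus bottom. Of the 16 probe sets, 14 were called and all 14 were higher at the top, covering 9 of the 10 genes, while the Ier2 probe set and the dimmer of the Fos probe sets were not called. Across the whole array 54.2% of probe sets were called and 25.5% were called higher at the top. The median difference over the 16 was 2.35, against 0.02 over all probe sets tested. A difference of at least 2 was found for 9 of the 16 member probe sets and for 1.87% of all. In 7 of the 16 the lowest top sample lay above the highest bottom sample (all 3 of Jun, all 3 of Klf6, and Junb), which held for 3.01% of all probe sets.

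**Figure D1:**
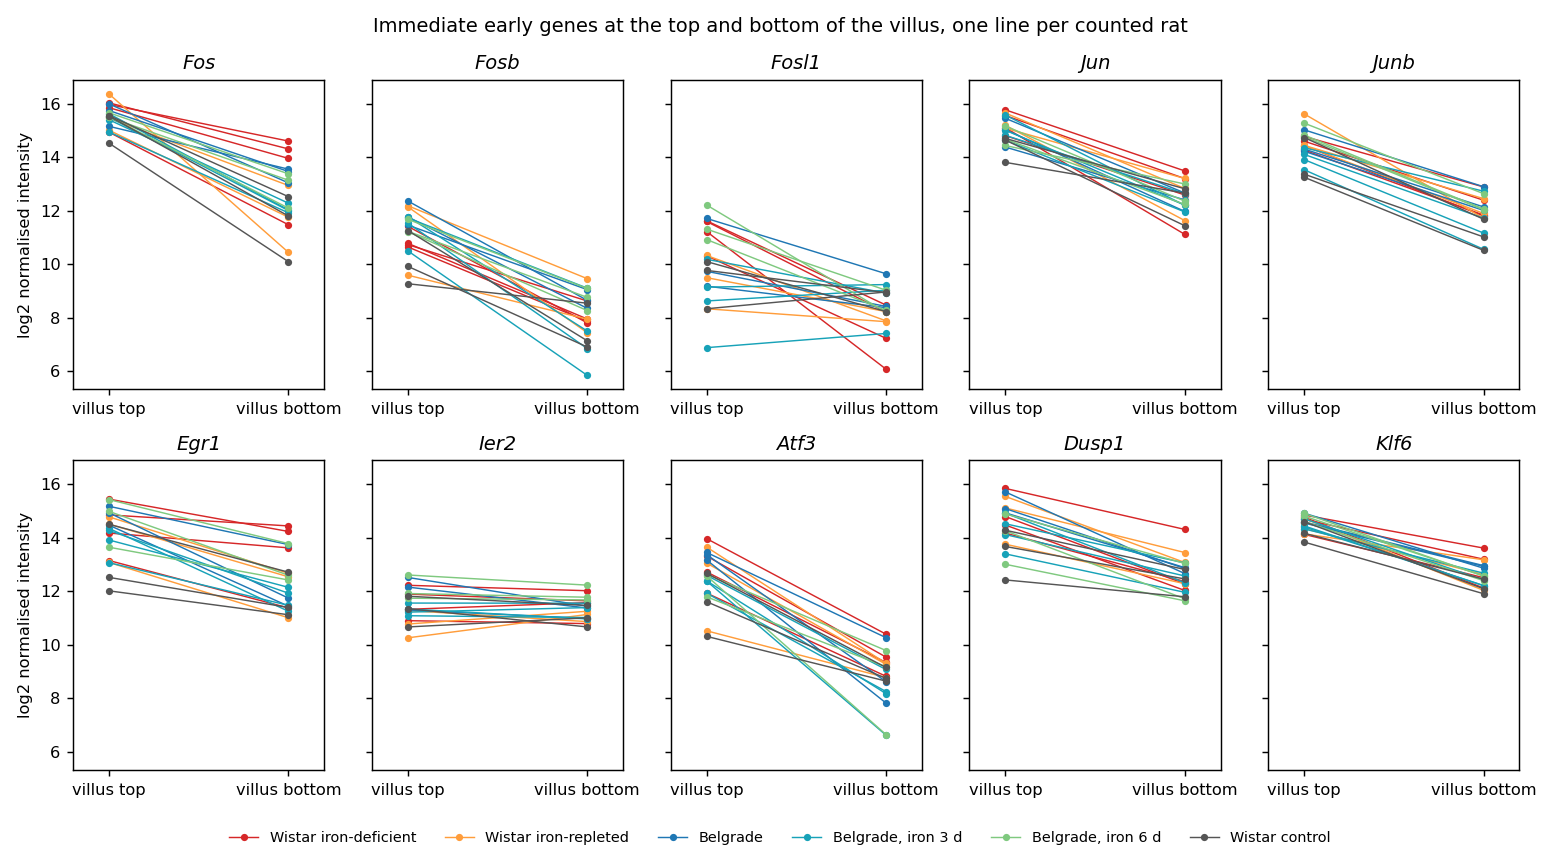
Level of the brightest probe set of each of the 10 genes at the villus top and the villus bottom (y axis, log2 normalised intensity), with a line for each of the 20 counted rats coloured by group. The lines slope down from top to bottom in 20 of 20 rats for 8 genes, in 16 of 20 for Fosl1 and, more shallowly, in 15 of 20 for Ier2.

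Among the Fos family, Fos had levels of 14.52, 15.52 and 16.36 (lowest, median and highest of 20) at the top and of 10.09, 12.40 and 14.60 at the bottom (1375043_at). In the deposited linear intensities of the 22 rats, the medians were 53396 units at the top and 6006 units at the bottom. The difference was 3.00 ± 0.20 (SE, adjusted p = 1.22e-09 in limma), it was positive in 20 of 20 rats, and the ranges met only because the highest bottom sample, iron-deficient rat 2, reached the level of the lowest top sample, control rat 3. The second Fos probe set, 1371283_at, was dim in both segments, with medians of 8.28 at the top and 7.27 at the bottom, and its difference of 0.27 ± 0.25 was not called (adjusted p = 0.385). Both medians lay below 8.99, the 40th percentile of the normalised arrays.

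Fosb had 9.27, 11.34 and 12.36 (lowest, median and highest) at the top and 5.85, 8.11 and 9.46 at the bottom. Only the lowest top sample, control rat 3, and the highest bottom sample, iron-repleted rat 3, kept the segments from separating. Its difference was 3.06 ± 0.23 (adjusted p = 4.81e-09), positive in 20 of 20 rats. At the bottom 16 of 20 samples lay below the 40th percentile of the arrays, so the direction is firmer than the size, which was 3.30 with a pseudocount of 11 and 2.53 with 176. Fosl1, which encodes Fra-1, had 6.88, 10.14 and 12.21 at the top and 6.08, 8.33 and 9.64 at the bottom. The difference of 1.70 ± 0.20 (adjusted p = 1.73e-06) was positive in 16 of 20 rats, the fewest of any called member probe set. It was dim as well, with 4 top and 16 bottom samples below the 40th percentile, and its difference was 1.82 with the smaller and 1.41 with the larger pseudocount.

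The 3 Jun probe sets gave nearly the same difference, 2.52 ± 0.17 (1389528_s_at), 2.49 ± 0.18 (1369788_s_at) and 2.48 ± 0.16 (1374404_at), with adjusted p of 1.2e-09, 3.91e-09 and 1.01e-09 in limma. The brightest had 13.81, 15.02 and 15.77 at the top and 11.12, 12.50 and 13.49 at the bottom. Top and bottom samples did not overlap in any of the 3. Probe sets ending in _s_at can match more than 1 transcript, but the one without that ending moved alike. Junb had 13.25, 14.43 and 15.62 at the top and 10.52, 11.95 and 12.90 at the bottom, a difference of 2.52 ± 0.12 (adjusted p = 2.58e-11) with no overlap.

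Atf3 had the largest difference of the 10 genes, 3.66 ± 0.24 (adjusted p = 1.23e-09), exceeded by 0.162% of all probe sets. Its levels were 10.31, 12.61 and 13.97 at the top, and 6.62, 8.95 and 10.39 at the bottom, where 10 of 20 samples lay below the 40th percentile of the arrays, and the difference was 3.80 with the smaller and 3.27 with the larger pseudocount. The segments met only between the lowest top sample, control rat 3, and the highest bottom sample, iron-deficient rat 2. Egr1 had 12.01, 14.41 and 15.44 at the top and 11.01, 12.28 and 14.44 at the bottom. It differed by 1.80 ± 0.14 (adjusted p = 1.03e-08), positive in 20 of 20 rats although the ranges overlapped widely.

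Klf6 was bright and even between rats: its brightest probe set, 1388986_at, had 13.84, 14.59 and 14.92 at the top and 11.91, 12.53 and 13.61 at the bottom. The 3 Klf6 probe sets differed by 1.95 ± 0.12 (1388986_at), 2.00 ± 0.09 (1387060_at) and 2.40 ± 0.13 (1395557_at), with adjusted p of 3.2e-10, 2.17e-11 and 1.05e-10. None of them had overlapping segments. Dusp1, the phosphatase that opposes the inducing kinases, had 12.42, 14.50 and 15.84 at the top and 11.64, 12.51 and 14.31 at the bottom (1368146_at), a difference of 1.86 ± 0.12 (adjusted p = 1.01e-09). Its second probe set, 1368147_at, differed by 2.30 ± 0.16 (adjusted p = 1.7e-09).

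Ier2 was the 1 gene with no called probe set. It had 10.26, 11.34 and 12.61 at the top and 10.67, 11.38 and 12.23 at the bottom, and the segments overlapped almost fully. The difference of 0.16 ± 0.10 was not called (adjusted p = 0.16 in limma) and was positive in 15 of 20 rats. Its probe set was well above the dim range in both segments, in contrast to the uncalled Fos probe set.

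**Figure D2:**
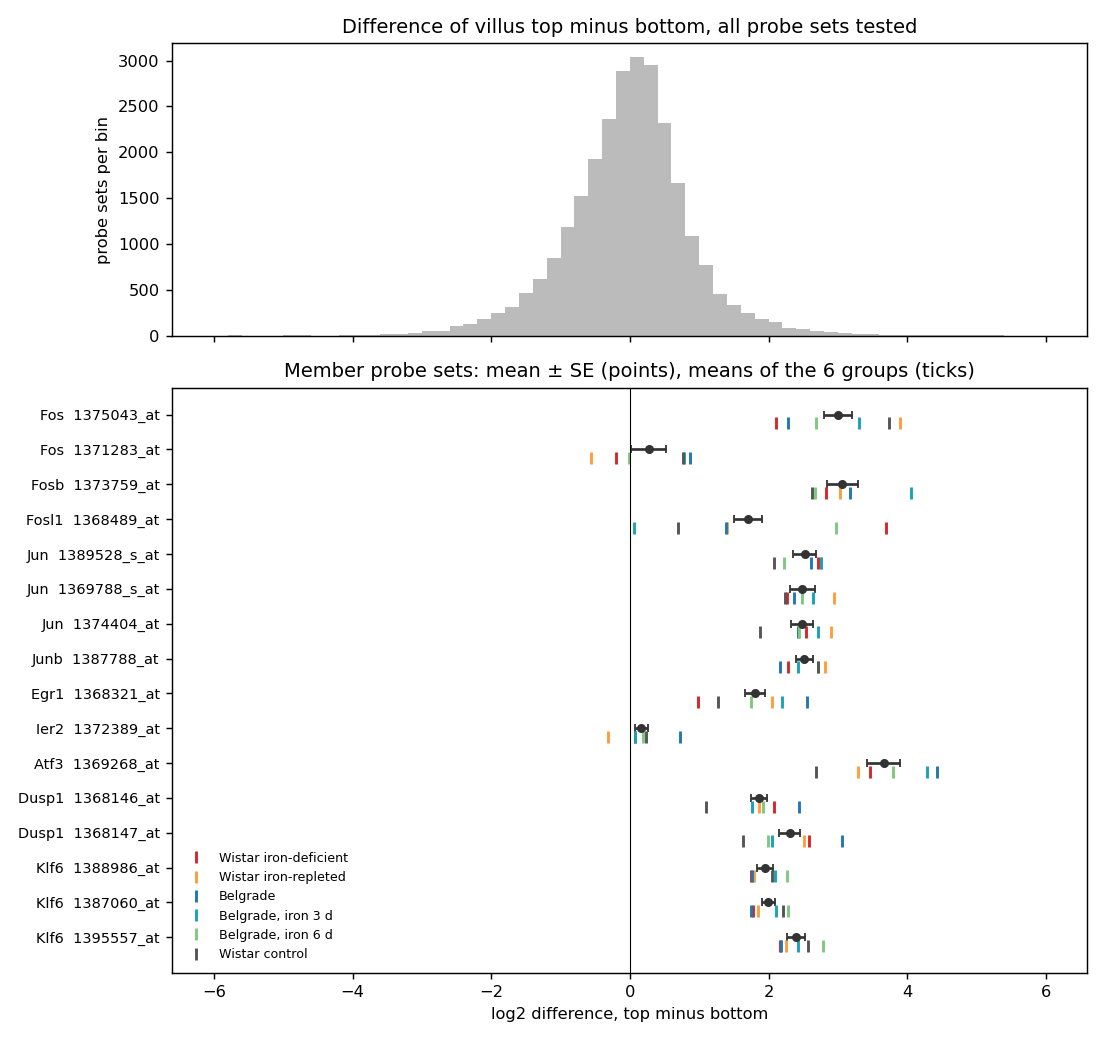
Upper panel, the number of probe sets per bin of the log2 difference of villus top minus villus bottom, over all 26517 tested. Lower panel, the same difference for the 16 member probe sets (point, mean ± SE over 20 samples) with the mean of each of the 6 groups as a tick; 14 points lie between 1.70 and 3.66, and those of Ier2 and of the dim Fos probe set near 0.

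The villus difference was present in each group taken alone. The number of the 16 probe sets called higher at the top was 14 in iron-deficient rats (13.6% of all probe sets), 13 in iron-repleted rats (14.2%), 13 in Belgrade rats on a normal diet (7.48%), 13 in Belgrade rats fed iron for 3 days (11.5%), 14 in those fed iron for 6 days (10.4%) and 13 in control rats (11.6%). The median difference over the 16 lay between 2.06 in control rats and 2.39 in iron-repleted rats. Fosl1 accounts for the change in the count, since it was called in the iron-deficient rats and in the Belgrade rats fed iron for 6 days and in no other group.

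Whether the villus difference itself differed between groups was tested for each probe set. None of the 16 was called in that test (limma, 0.00754% of all probe sets were called), and 2 had an unadjusted p under 0.05 (2054 of all 26517 did), Fosl1 (adjusted p = 0.427) and Egr1 (adjusted p = 0.634). For Fosl1 the differences of top minus bottom were 3.08, 3.38, 3.15 and 5.14 in iron-deficient rats, 1.27, 2.44 and 0.48 in iron-repleted rats, and -0.63, 1.87 and 0.83 in control rats. In the Belgrade rats they were 1.31, 2.07 and 0.80 on a normal diet, 1.26, -0.53, -0.09 and -0.40 after 3 days of iron, and 4.01, 2.65 and 2.28 after 6 days. Most of the bottom values behind these differences are dim: in iron-deficient rats they were 7.23, 8.21, 8.47 and 6.08, all below the 40th percentile, so the single differences, that of 5.14 above all, carry little precision.

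In a list of 48 measured immediate early genes outside the 10, 34 were called between top and bottom, 30 of them higher and 4 lower at the top, with a median difference of 0.72. The largest were Sgk1 (3.29 ± 0.17), a kinase that regulates ion transport, Trib1 (2.47 ± 0.13), a pseudokinase, Errfi1 (2.45 ± 0.09), an inhibitor of the EGF receptor, Klf4 (2.44 ± 0.06), a zinc-finger factor of differentiated epithelium, Csrnp1 (2.44 ± 0.08), a nuclear protein, Maff (2.30 ± 0.26), a small basic zipper factor, and Ptgs2 (2.15 ± 0.28), the inducible prostaglandin synthase. Myc, which drives cell growth, was lower at the top (-2.49 ± 0.21). All 8 had an adjusted p of at most 5.16e-06 in limma. Klf4 and Myc also follow the differentiated and the dividing cells of this epithelium, and the enterocyte markers (8 of 8 called higher at the top, median 2.12) and the crypt and proliferation markers (8 of 9 called lower, median -2.88) moved with the same axis. Their part in the members' difference was not tested.

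Transcripts of the pathway that induces these genes were called in both directions. Of 18 measured genes of the inducing pathway 12 were called, 7 higher and 5 lower at the top, against 54.2% of all probe sets called. The 14 measured partners and other basic zipper genes had 7 called, 5 higher and 2 lower, and Atf1 and Atf2 stand in both lists. Heat shock genes split as well, with 3 of 9 called higher and 4 called lower at the top. The mitochondrial chaperone genes Hspe1 (-2.59 ± 0.13) and Hspd1 (-2.33 ± 0.11) were the largest of these, both lower at the top (adjusted p = 4.49e-11 and 3.76e-11). The median difference was 0.14 for the inducing pathway, 0.26 for the partners and -0.45 for the heat shock genes.

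Iron-deficient rats, which had both the low-iron diet and the bleeding, were set against control rats on a normal diet. The labels give no bleeding for control rats. Low iron and repeated bleeding therefore cannot be told apart here, nor where iron-repleted rats are set against control rats. On the mean of top and bottom, all 16 member probe sets had a higher mean in iron-deficient than in control rats, but none was called in limma, and 11 had an unadjusted p under 0.05. Fosl1 ran in opposite directions in the segments. It differed by 0.29 on that mean, by 1.79 at the top alone and by -1.21 at the bottom alone. Fosl1 was called in neither segment (adjusted p = 0.249 and 0.372 in limma). On the whole array 0.404% of probe sets were called, and 3750 of the 26517 had an unadjusted p under 0.05. The median difference over the 16 was 0.77, against -0.02 over all probe sets, and 48.4% of all probe sets were higher in iron-deficient rats. Iron-deficient and control rats did not overlap in 3 of the 16 (Fosb and the Klf6 probe sets 1387060_at and 1395557_at), and 7.84% of all probe sets were higher without overlap.

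Klf6 came nearest to a call. By 1395557_at it had 13.04, 13.20, 12.59 and 12.61 in iron-deficient rats, against 11.30, 11.33 and 12.13 in control rats, a difference of 1.27 ± 0.29 (adjusted p = 0.0536). The other Klf6 probe sets differed by 0.56 ± 0.18 and 0.51 ± 0.22 (adjusted p = 0.149 and 0.284). Klf6 1395557_at passed the threshold when any 1 of 6 samples was left out: iron-deficient rat 4, iron-repleted rat 3, Belgrade rats 1 and 2 or rat 4 of those on a normal diet, or rat 3 or rat 4 of those fed iron for 3 days (adjusted p = 0.0292 to 0.0498, difference 1.27 to 1.36). Of these, only iron-deficient rat 4 is in the groups compared, and without any of the others the difference stayed at 1.27. In 14 of the 20 runs that left out 1 sample, no member probe set was called. Fos had 14.90, 15.29, 15.17 and 13.20 in iron-deficient rats, against 14.04, 12.31 and 13.67 in control rats. Of the iron-deficient rats, 3 were above every control rat, and rat 4 lay among the controls. The difference was 1.30 ± 0.39 (adjusted p = 0.122), and without iron-deficient rat 4 it was 1.78 and was called (adjusted p = 0.016), as was Klf6 1395557_at (1.36, adjusted p = 0.0498). Without control rat 3, the lowest control, the difference of Fos was 0.79 (adjusted p = 0.55).

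Egr1 had the largest difference of the 16, 1.53 ± 0.55 (adjusted p = 0.195), with 13.90, 14.64, 14.84 and 12.26 in iron-deficient rats, against 11.95, 11.57 and 13.60 in control rats. Rat 4 was again the lowest of the iron-deficient rats, and control rat 4 was the highest control. Junb had 13.12, 13.50, 13.83 and 13.05 in iron-deficient rats, against 12.19, 11.89 and 13.21 in control rats (0.95 ± 0.32, adjusted p = 0.159). Dusp1 had 13.27, 15.07, 13.53 and 13.25 in iron-deficient rats, against 13.06, 12.11 and 13.55 in control rats (0.88 ± 0.43, adjusted p = 0.368). This difference was 0.44 without iron-deficient rat 2 and 0.48 without control rat 3. The other Dusp1 probe set, 1368147_at, differed by 0.97 ± 0.34 (adjusted p = 0.175 in limma). Iron-deficient rat 2 had the highest mean of all 20 samples in 5 of the 10 genes, and control rat 3 had the lowest in 6.

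Markers of other cell types moved with the same comparison. The 14 stromal markers all had a lower mean in iron-deficient rats (median -0.71), with Col6a1 called (-0.96, adjusted p = 0.0353), and at the bottom their mean level was 12.67 to 13.20 in iron-deficient rats, against 13.12 to 15.75 in control rats. Red cell markers were higher in 3 of 3 (median 1.28) and lymphocyte markers in 2 of 11 (median -0.51), none of them called. At the villus top alone the red cell gene Hbb was called higher (2.50, adjusted p = 0.0235), as was the goblet cell gene Tff3 (0.92, adjusted p = 0.0154), while the enterocyte genes Anpep (-1.22, adjusted p = 0.0455) and Vil1 (-0.71, adjusted p = 0.0293) were called lower. As lists there, red cell markers were higher in 2 of 3, Paneth and goblet markers in 3 of 7 (median -0.09) and enterocyte markers in 1 of 8 (-0.38). Enterocyte markers were higher in 5 of 8 on the mean of top and bottom (0.35) and in 6 of 8 at the bottom alone (1.32), none of them called. The part of these cells was not tested. Without control rat 3 and iron-repleted rat 3, the 2 samples highest in stromal markers, 16 of 16 members were still higher in iron-deficient rats, with a median of 0.61 and 0 called. Leaving out the 2 rats whose arrays had been scaled higher gave the same values. Both runs remove control rat 3 and no other rat of this comparison, so they are not separate checks.

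From the lists of related genes, 2 were called in iron-deficient against control rats. Klf4 had 15.31, 15.55, 15.13 and 15.02 in iron-deficient rats, against 14.55, 14.30 and 14.70 in control rats, and rose by 0.73 ± 0.16 (adjusted p = 0.0481). Map2k1, the MAP kinase kinase upstream of ERK, had 13.80, 13.52, 13.55 and 13.91 in iron-deficient rats, against 13.17, 13.09 and 13.01 in control rats, and rose by 0.61 ± 0.14 (adjusted p = 0.0488). Neither gene had overlapping groups, but both adjusted p were close to the threshold. On the whole array this comparison called 0 to 473 probe sets when 1 sample was left out. Under the other alternative runs it called 0 to 1317. In the runs with 0 called, neither gene was called. At the villus top alone the differences were 0.91 for Klf4 and 0.80 for Map2k1 (adjusted p = 0.0155 and 0.0251).

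Belgrade rats were compared with the same control rats, so this comparison and that of iron-deficient rats are not independent. All 16 probe sets had a higher mean in Belgrade than in control rats, 7 had an unadjusted p under 0.05 (1592 of all 26517 did) and none was called in limma (0.0113% of all probe sets were called). The median difference was 0.74 over the 16 and -0.01 over all. Belgrade and control rats did not overlap in 6 of the 16, all of them higher (Fos 1375043_at, Fosb, both Dusp1 probe sets, and Klf6 1388986_at and 1387060_at), against 7.13% of all probe sets.

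Fosb differed most, with 10.26, 10.51 and 10.06 in Belgrade rats, against 8.41, 8.91 and 9.20 in control rats (1.43 ± 0.47, adjusted p = 0.607). Klf6 (1388986_at) had 13.74, 13.89 and 13.77 in Belgrade rats, against 13.31, 12.87 and 13.35 in control rats (0.62 ± 0.19, adjusted p = 0.53). Fos had 14.51, 14.35 and 14.60 in Belgrade rats, against 14.04, 12.31 and 13.67 in control rats (1.15 ± 0.42, adjusted p = 0.71), and 0.64 without control rat 3. In all 3 genes the Belgrade samples lay above each control and spanned a narrower range than the control samples of that gene. The controls were spread most widely for Fos (12.31 to 14.04). Fosb was dim at the bottom, and at the top alone it averaged 11.87 in Belgrade rats and 10.15 in control rats (1.72 ± 0.55, adjusted p = 0.357). Leaving out 1 sample at a time left 14 to 16 of the 16 higher in Belgrade rats. Stromal markers were lower in Belgrade rats in 14 of 14 (median -0.70) and lymphocyte markers in 9 of 11 (-0.51), and higher were red cell markers in 3 of 3 (0.98) and enterocyte markers in 6 of 8 (0.32). Enterocyte markers were higher in 7 of 8 at the bottom alone (1.00) and in 2 of 8 at the top alone (-0.18). Crypt and proliferation markers were higher in 1 of 9 at the bottom alone (-0.56). None of these was called, and their part was not tested. Among the related genes Atf5, a basic zipper factor, was called at the villus top alone (2.30, adjusted p = 0.045).

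**Figure D3:**
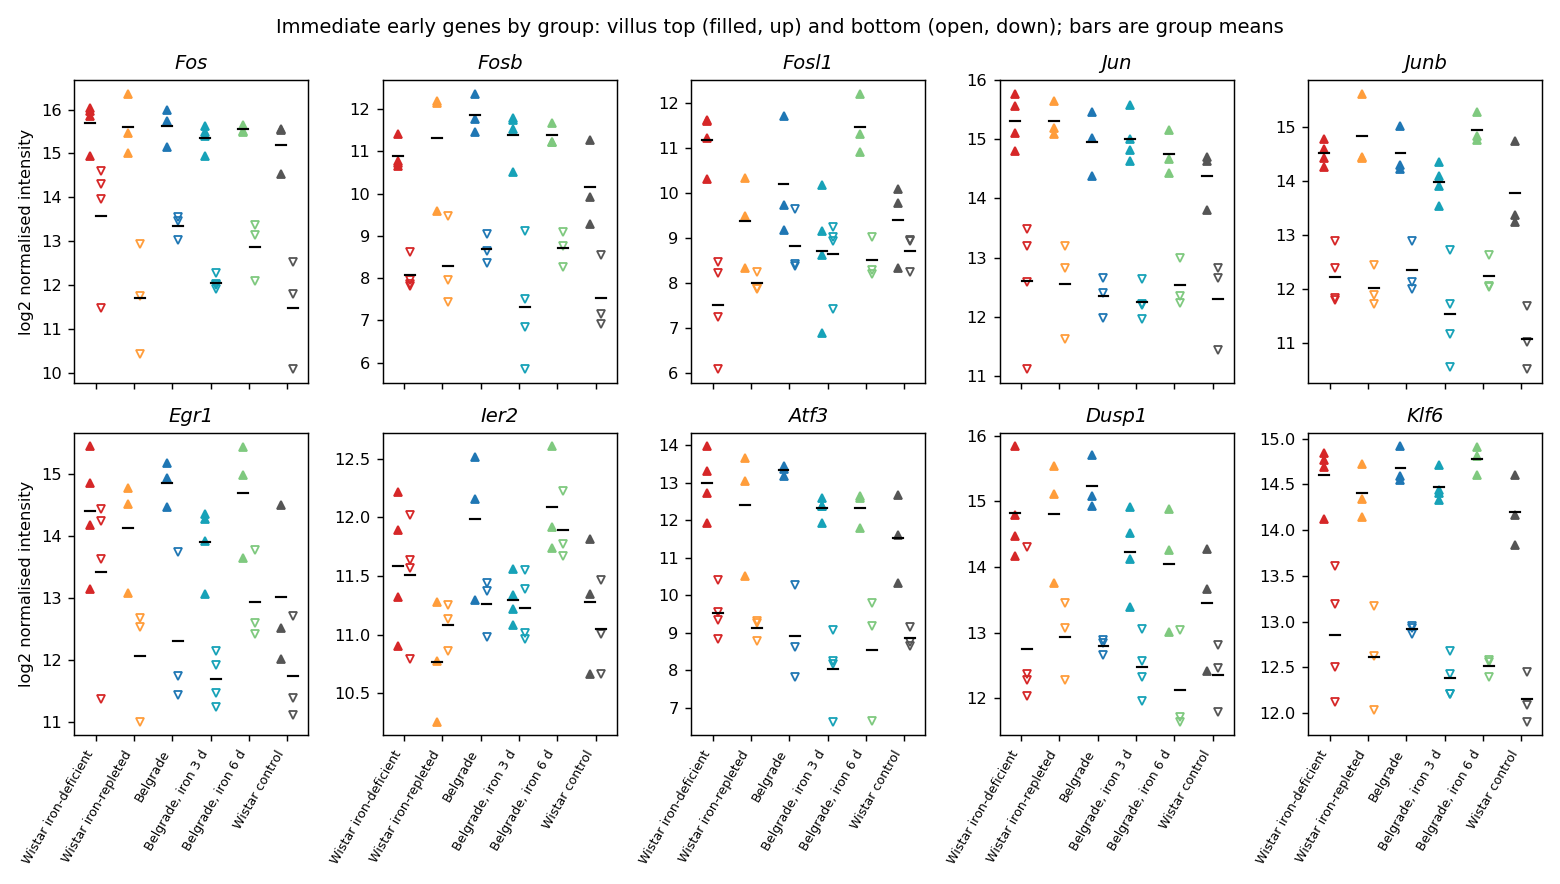
Level of the brightest probe set of each gene in every counted sample (y axes, log2 normalised intensity, scaled separately for each gene), by group, with filled triangles for the villus top, open triangles for the villus bottom and bars for group means. Control rats have the lowest group mean at the top for Fos, Fosb, Jun, Junb, Egr1, Atf3, Dusp1 and Klf6.

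Iron repletion was compared with both ends of the design. The villus-top arrays of iron-repleted rats correlated least with their own group, at a mean of 0.818, 0.818 and 0.766. Every other top array reached at least 0.868. The top array of iron-repleted rat 3 (0.766) also had the highest median deposited intensity of the villus arrays, 1179. Against iron-deficient rats, 5 of the 16 probe sets had a higher and 11 a lower mean in iron-repleted rats, with a median of -0.22, and none was called in limma (0% of all probe sets were called), with 2 at an unadjusted p under 0.05 (3385 of all 26517). The direction turned on single rats: without iron-repleted rat 1, 9 of the 16 were higher and the median was 0.07, without iron-repleted rat 3, 2 were higher, without iron-repleted rat 2 the median was -0.50, and without iron-deficient rat 2 it was -0.05. Stromal markers had a higher mean in iron-repleted than in iron-deficient rats in 13 of 14 (median 0.53), lymphocyte markers in 8 of 11 (0.21), enterocyte markers in 2 of 8 (-0.10) and red cell markers in 0 of 3 (-0.41), none of them called. Their part was not tested. Only Klf6 1395557_at had groups that did not overlap, lower in iron-repleted rats, against 4.01% of all probe sets. The largest difference was that of Fos, with 13.38, 14.20 and 13.40 in iron-repleted rats, against 14.90, 15.29, 15.17 and 13.20 in iron-deficient rats (-0.98 ± 0.39, adjusted p = 0.306). Without iron-deficient rat 4 this difference was -1.46 and was called (adjusted p = 0.0191). Ier2 differed by -0.62 ± 0.28 (adjusted p = 0.352), with 10.69, 11.07 and 11.01 in iron-repleted rats, against 11.45, 11.76, 12.12 and 10.84 in iron-deficient rats.

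Against control rats, 14 of the 16 had a higher mean in iron-repleted rats (median 0.71), 6 had an unadjusted p under 0.05 (4012 of all 26517 did) and none was called (0.0679% of all probe sets were called). In 3 of the 16 the groups did not overlap, all of them higher (Jun 1369788_s_at and 1374404_at and Klf6 1388986_at), against 7.65% of all probe sets. Among the Jun probe sets, 1374404_at had 12.21, 12.63 and 12.46 in iron-repleted rats, against 11.48, 11.30 and 11.82 in control rats (0.90 ± 0.27, adjusted p = 0.123). Junb had 13.17, 13.45 and 13.67 in iron-repleted rats, against 12.19, 11.89 and 13.21 in control rats (1.00 ± 0.34, adjusted p = 0.167), and only control rat 4 reached the iron-repleted range. The 2 lower ones were Ier2 (-0.23 ± 0.30) and Fosl1 (-0.37 ± 0.56), and without control rat 4 Ier2 was at 0.00461, without iron-repleted rat 3 Fosl1 was at -0.07. Without control rat 3 and iron-repleted rat 3 the median over the 16 was 0.29 and 13 were higher, and without iron-repleted rat 2 or rat 3 alone it was 0.45. Stromal markers had a higher mean in iron-repleted than in control rats in 2 of 14 (median -0.28), lymphocyte markers in 2 of 11 (-0.48), pancreatic markers in 0 of 10 (-1.94) and red cell markers in 3 of 3 (0.88), none of them called and their part not tested. At the villus top alone, Map2k1 (0.95, adjusted p = 0.0405) and the heat shock gene Hspa1a (1.50, adjusted p = 0.047) were called.

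In Belgrade rats the iron feeding forms a short time series. On a normal diet, after 3 days and after 6 days of iron, the mean level of Fos was 14.49 ± 0.13, 13.71 ± 0.19 and 14.21 ± 0.37 (SD, n = 3, 4 and 3), that of Atf3 was 11.12 ± 0.69, 10.18 ± 0.55 and 10.43 ± 0.80, and that of Egr1 was 13.58 ± 0.78, 12.80 ± 0.38 and 13.81 ± 0.78. Fos, Atf3 and Egr1 were thus lowest at 3 days, and their values at 6 days overlapped those without iron. Not every member ran this way. Dusp1 1368146_at fell at both steps, with means of 14.02, 13.36 and 13.09 in the same order. Klf6 1387060_at had 13.51, 13.19 and 13.17, and Jun 1389528_s_at was nearly level at 13.65, 13.63 and 13.64. After 3 days all 16 probe sets had a lower mean than in Belgrade rats on a normal diet (median -0.49, against 0.01 over all probe sets), 2 had an unadjusted p under 0.05 (730 of all 26517 did) and none was called (0% of all). Leaving out 1 sample at a time left 13 to 16 of the 16 lower. Enterocyte markers, which are higher at the villus top like the members, were lower after 3 days in 7 of 8 (median -0.57, and -1.02 at the bottom alone), and Paneth and goblet markers were higher in 7 of 7 (0.30), none of them called. Their part was not tested. In 5 of the 16 the groups did not overlap, all of them lower (Fos 1375043_at, both Dusp1 probe sets, and Klf6 1388986_at and 1387060_at), against 2.24% of all probe sets.

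Per sample, Fos had 13.84, 13.43, 13.75 and 13.83 after 3 days of iron, against 14.51, 14.35 and 14.60 in Belgrade rats on a normal diet (-0.78 ± 0.39). Klf6 (1388986_at) had 13.57, 13.50, 13.32 and 13.31 after 3 days, against 13.74, 13.89 and 13.77 on a normal diet (-0.37 ± 0.18). Both had an adjusted p of 0.9999 in limma. The groups stood apart in these samples, and the unadjusted p in limma was 0.0589 for Fos and 0.0501 for Klf6. After 6 days 10 of the 16 were lower and 6 higher than on a normal diet (median -0.13), with 0 called (0% of all) and 0 at an unadjusted p under 0.05 (1120 of all 26517), and the largest was Dusp1 1368146_at (-0.93 ± 0.46, adjusted p = 0.9995), which was -0.54 without rat 3 of those fed for 6 days. Without Belgrade rat 4 on a normal diet the median was -0.01 and 8 of the 16 were higher. Stromal markers were higher after 6 days in 14 of 14 (median 0.60, none called), and their part was not tested. Klf6 1388986_at was the 1 member probe set whose groups did not overlap, lower after 6 days, against 5.62% of all. These 2 comparisons share the rats on a normal diet. Xist, a transcript of female cells, was above a log2 level of 12 in 3 of 3 rats fed iron for 6 days, 1 of 4 fed for 3 days, 1 of 4 Belgrade rats on a normal diet, 1 of 4 control, 1 of 3 iron-repleted and 0 of 4 iron-deficient rats, and the part of sex was not tested.

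**Figure D4:**
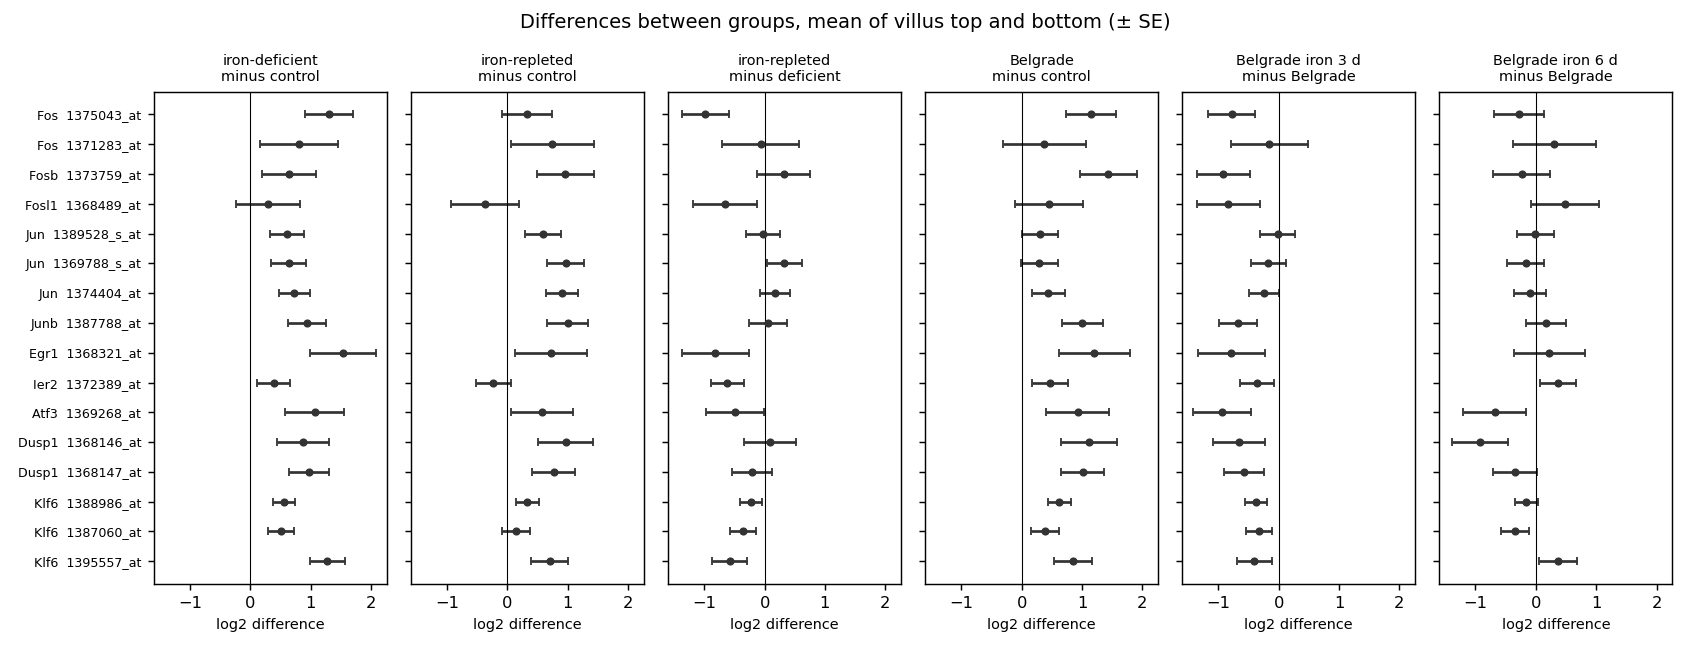
Log2 difference (x axis, ± SE) of each of the 16 member probe sets in the 6 group comparisons, on the mean of villus top and bottom. All 16 points lie above 0 for iron-deficient and for Belgrade against control rats and below 0 for 3 days of iron in Belgrade rats, and no probe set was called in any panel.

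A test for any difference among the 6 groups called none of the 16 in limma (0.0189% of all probe sets were called), with 7 at an unadjusted p under 0.05 (3551 of all 26517) and a lowest adjusted p of 0.172. With the villus top alone or the villus bottom alone, none of the 16 was called in any of the 6 group comparisons either. At the top alone the median over the 16 was 0.83 in iron-deficient against control rats (9 at an unadjusted p under 0.05, 0.977% of all probe sets called), 0.90 in iron-repleted against control rats (7, 0.207% called) and 0.72 in Belgrade against control rats (8, 0.0905% called). Over all 26517 probe sets, in the same order, 3308, 4085 and 1741 had an unadjusted p under 0.05. At the bottom alone the median over the 16 was 0.65 in iron-deficient against control rats (7, 0% called) and 0.38 in Belgrade against control rats (4, 0.00377% called). There 3449 and 1726 of all 26517 had an unadjusted p under 0.05. Among the 7 member probe sets counted at the bottom for iron-deficient rats, Fosl1 was lower than in control rats (-1.21).

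Within groups the SD of a member probe set had a median of 0.57 at the top (0.69 over all probe sets tested) and of 0.65 at the bottom (0.51 over all). On the mean of top and bottom it was 0.48 for the members and 0.47 for all. There Egr1 (0.89) and the dim Fos probe set (0.91) varied most among rats of a group, and Klf6 1388986_at least (0.24). Averaged over the brightest probe set of each gene, the level of the 10 genes was highest in iron-deficient rat 2 (13.08) and lowest in control rat 3 (11.25).

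The genes whose rat means followed this average most closely over the 20 samples were Ch25h (cholesterol 25-hydroxylase, Pearson r = 0.852, Spearman rho = 0.839), Egr2 (0.826 and 0.789), a relative of Egr1, Errfi1 (0.817 and 0.818), Id1 (0.779 and 0.741), an inhibitor of basic helix-loop-helix factors, Ccng2 (0.770 and 0.756), a cyclin, and Ereg (0.760 and 0.835), a ligand of the EGF receptor. For single members the highest were Ccng2 (r = 0.882) and Stk17b (r = 0.839) for Fos, Vcl (r = 0.851) and Tmem106b (r = 0.822) for Jun, Ch25h (r = 0.880) and Egr2 (r = 0.859) for Egr1, and Sik1 (r = 0.766) and Ch25h (r = 0.753) for Atf3. These are descriptions of likeness across all probe sets, and the points share arrays, rats and groups. All 6 genes that followed the average were also called higher at the villus top, by 0.67 (Ch25h) to 2.62 (Ccng2). Of the 4 others named for single members, Stk17b, Sik1 and Vcl were called higher at the top and Tmem106b was not called (-0.20, adjusted p = 0.0791).

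The 2 crypt arrays come from 1 rat, so their difference has no replicate check. Their marker levels resembled villus segments: the array labelled upper crypt had an enterocyte marker level of 16.76 and a proliferation marker level of 10.89, both inside the villus-top range, and the array labelled lower crypt had 15.25 and 12.43, both inside the villus-bottom range. On the array labelled upper crypt, 12 of the 16 probe sets were above the highest of the 20 villus-bottom samples, against 15.5% of all probe sets, and on the array labelled lower crypt 2 were, against 4.57% of all.

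Fos had a level of 15.34 on the upper crypt array and 14.24 on the lower crypt array. Jun (1389528_s_at) had 14.47 and 13.01 on the upper and lower arrays, Junb had 13.53 and 12.33, and Dusp1 (1368146_at) had 15.07 and 13.64. In these 4 genes the upper array was higher by 1.10 to 1.46. Egr1, with 13.76 on the upper and 13.80 on the lower array, and Ier2, with 11.29 and 11.46, were nearly level, as was Klf6 1387060_at with 13.98 and 14.06. Fosl1 ran the other way, with 7.85 on the upper and 9.15 on the lower array (-1.30), and Fosb, with 7.79 and 7.62, was dim on both. The second Fos probe set, 1371283_at, dim in the villus, had 10.07 on the upper array, above both villus ranges, and 7.09 on the lower (2.99). Of the 16, 12 were higher on the upper array and 7 by more than 1, against 12.2% of all probe sets, and the median was 0.84, against 0.01 over all.

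**Figure D5:**
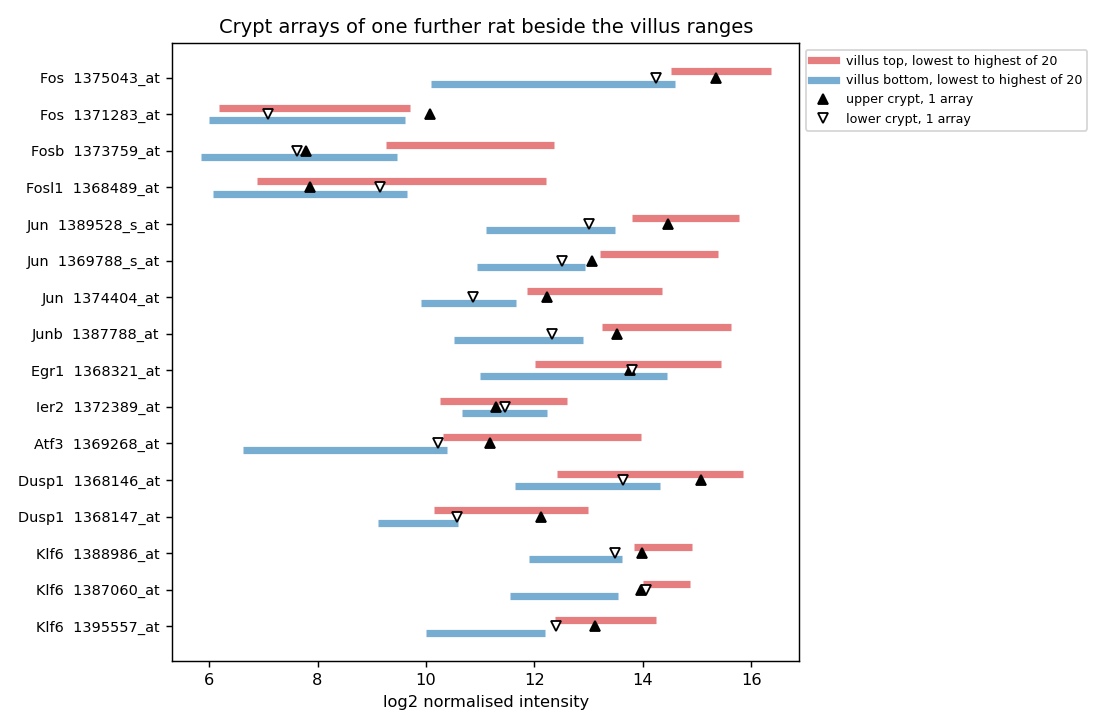
Level (x axis, log2 normalised intensity) of the 16 member probe sets on the array labelled upper crypt (filled triangle) and the array labelled lower crypt (open triangle), beside the range from lowest to highest of the 20 villus-top and the 20 villus-bottom samples (bars). On the upper crypt array 12 probe sets lie above the bottom range.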

How the data were processed

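Affymetrix rat arrays of villus top and bottom (44 arrays, 22 rats) and of 2 crypt segments were used. The authors deposited linear intensities, a single value for each probe set of an array. Neither signal algorithm nor genome build is given in the sources used here. The values show a common trimmed mean per array, which hides any shift shared by most genes. After 57 control probe sets were left out of 31099, log2(intensity + 44) of the deposited intensities was quantile normalised over the villus arrays (44 is their 10th percentile), and the crypt arrays were set to the same distribution. Probe sets above the 40th percentile of their array on at least 3 villus arrays were tested. The arrays limit precision by their number. Symbols came from the platform annotation, which names 1 gene for 20826 probe sets, several for 436 and none for 9780; genomic positions of probe sets were not used here.

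Groups were compared with limma 3.58.1 (R 4.3.3, data.table package 1.17.8; lmFit, eBayes with a trend) in 1 fit of 6 groups, taking the average of the top and bottom arrays of a sample, and top with bottom on the difference within each rat; both were tested on simulated data. P-values were Benjamini-Hochberg adjusted over 26517 probe sets. Near-identical rats (robust SD of the difference under 0.2 over the 6209 brightest probe sets, in both segments) were averaged. The members and gene lists were chosen with earlier results of these data known. All member probe sets are named; from the lists of related genes, the called ones by their brightest probe set, at most 10 per comparison by size; and the 6 most alike probe sets, 2 for single members. A gene list's level is the mean log2 level of its brightest probe sets, among symbols that passed the filter. Top and bottom of a rat are paired by their labels. In 17 of 22 rats the top correlated best with the bottom of the same rat, and in the others it did not. Rat numbers do not pair rats between groups: the deviations of rats with equal numbers correlated at -0.07 to 0.31, and 0 of 15 group pairs had them all over 0.1. The alternatives were other normalisations, pseudocounts of 11 and 176, no filter, no trend, every rat counted separately, a block, and leaving out samples.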

Additional observations from a re-analysis of the deposited data

Results flagged for a closer look

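In groups of 4 samples, each member probe set was searched at the top and at the bottom for a sample far from the others (Dixon's test of the gap over the range, at its 95% critical value). Of 64 such searches 4 found one, and chance gives about 1 in 20. Fos (1375043_at) at the villus top was 14.93 in iron-deficient rat 4, against 15.85 to 16.03 in the other 3 rats, the same rat whose removal brought Fos past the threshold against control rats. Dusp1 (1368146_at) at the villus bottom was 14.31 in iron-deficient rat 2, against 12.03 to 12.36 in the others. In Belgrade rats fed iron for 3 days, rat 2 stood apart for the dim Fos probe set 1371283_at at the top, with 6.62 against 8.32 to 8.51, and for Klf6 (1387060_at) at the bottom, with 12.50 against 11.98 to 12.05.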

How the results depend on the processing

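Between villus top and bottom 14 of the 16 probe sets were called under each alternative run, including without the rat as a block, without the 5 samples with pancreatic markers, and without each sample in turn (14 to 14); among the brightest probe set of each gene the 1 change of sign was Ier2 on the values as deposited (-0.0397). In iron-deficient against control rats 0 probe sets were called, but 1 with a larger pseudocount and 1 with all rats counted separately (Klf6 1395557_at both times), and 4 with the rat number as a replicate block (Jun 1374404_at, Junb, Klf6 1388986_at and 1395557_at). The same block, on rats counted separately, called 4 in iron-repleted against control rats (2 Jun probe sets, Junb and Klf6 1395557_at; 1 without the block, Jun 1374404_at) and 2 for any difference among groups; the block changed no other count, and the numbers pair no animals. Leaving out each sample in turn gave 0 to 2 called for iron-deficient against control, 0 to 1 for iron-repleted against iron-deficient and 0 to 1 for any difference, and 0 to 0 in the others. Klf6 1395557_at passed without iron-deficient rat 4, iron-repleted rat 3, Belgrade rats 1 and 2 or rat 4, or rat 3 or 4 of those fed iron for 3 days (adjusted p 0.0292 to 0.0498). Across all probe sets the same comparison called 107, with 0 to 473 leaving out a sample and 0 to 1317 under the others; iron-repleted against control called 18 (0 to 1606 under the others), Belgrade against control 3 (0 to 91) and iron-repleted against iron-deficient 0 (0 to 508 leaving out a sample). Small differences changed sign. Jun 1389528_s_at in Belgrade rats after 3 days of iron became 0.0264 on values as deposited and 0.0173 with all rats separate, with or without the block, and after 6 days 0.0316 with all rats separate and 0.0608 with the block; in iron-repleted against iron-deficient rats it became 0.00845 with the block. In that comparison median centring gave -0.248 for Junb and -0.245 for Dusp1. Chosen after seeing the data, leaving out the 2 rats scaled higher gave -0.193 for Fos in iron-repleted against control rats; leaving out the 2 rats high in stromal markers gave -0.0631 for it and, against iron-deficient rats, -0.199 (Fosb), -0.0688 (Junb) and -0.133 (Dusp1); leaving out the 5 samples with pancreatic markers gave 0.121 (Jun), -0.0331 (Junb) and -0.0844 (Dusp1) there, -0.331 for Fosl1 in Belgrade against control rats, and 0.0321 (Fosb) and 0.101 (Atf3) after 6 days of iron. Leaving out each sample in turn gave, in iron-repleted against iron-deficient rats, -0.199 to 0.83 for Fosb, -0.302 to 0.239 for Jun, -0.0688 to 0.205 for Junb, -0.849 to 0.0657 for Atf3 and -0.133 to 0.518 for Dusp1; against control rats, -0.193 to 0.673 for Fos and -0.398 to 0.00461 for Ier2 in iron-repleted rats and -0.127 to 0.823 for Fosl1 in Belgrade rats; and against Belgrade rats on a normal diet, -0.149 to 0.184 for Jun after 3 days, and -0.135 to 0.198 for Jun, -0.0107 to 0.430 for Junb and -0.171 to 0.663 for Egr1 after 6 days. The cause was not tested. For villus top against bottom every probe set of a gene is given beside the brightest. In the group comparisons and on the crypt arrays only some are, and dim probe sets (Fos 1371283_at) limit what can be seen.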
